A study of Mus musculus with 4 samples.

Results

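The genes described here are 10 members of the bone morphogenetic protein (BMP) pathway and its ID target family, found by symbol in the count tables among 49997 genes: the ID genes Id1, Id2, Id3 and Id4, the ligands Bmp4 and Bmp7, the type I receptor Bmpr1a, and the feedback inhibitors Smad6, Smad7 and Bambi. All 10 were found, and 7 of them were among the 12783 genes that passed the filter on low counts. Bmp4, Smad6 and Bambi did not pass it and were described from their counts. RNA came from wild-type mouse iMOP cells, a permanently dividing line made from progenitors of the ear, in a series on the chromatin factor CHD7 and neuronal differentiation. The proliferating group (2 libraries) was grown in DMEM/F12 with B27 supplement, carbenicillin and basic FGF at 20 ng/ml, and the neuron group (2 libraries) consisted of iMOP-derived neurons kept in Neurobasal medium with N21 supplement, L-glutamine and the CDK2 inhibitor K03861 at 1 µM. Medium, growth factor, inhibitor and cell state therefore differed together and cannot be told apart. All libraries came from 1 cell line, and a BMP ligand or BMP inhibitor is not among the additions that the protocols name.

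BMP ligands bind pairs of type I and type II receptor kinases, which phosphorylate SMAD1, SMAD5 and SMAD9. These enter the nucleus with SMAD4 and activate target genes, among which the ID genes and the inhibitory SMAD genes Smad6 and Smad7 are the classical examples. ID proteins have the helix-loop-helix dimerization region but lack the basic region that contacts DNA, so that they hold E proteins in inactive pairs and restrain the proneural factors that need E proteins as partners. In the developing ear BMP4 marks sensory patches, and ID genes are known from prosensory progenitors, where they restrain hair cell differentiation.

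The total count per library lay between 7446361 and 14484011. The 18S ribosomal RNA row took 53.3% to 59.4% of it in the replicate 1 libraries and 75.0% to 76.1% in the replicate 2 libraries, whose titles carry the words set 2. Levels are given as CPM (counts scaled to a common library size) on library sizes adjusted by TMM, a scaling that brings most genes of the libraries to a common level, and 3 counts, the limit used for a count of 0, correspond to 0.247 to 0.406 CPM. Proliferating replicate 2 stood apart, and its log2 CPM correlated at 0.825 with that of proliferating replicate 1, below the 0.918 between proliferating and neuron replicate 1. The labels were checked against cell type markers. The 7 proliferation markers summed to 331 and 84.7 CPM in the proliferating libraries and to 415 and 246 CPM in the neuron libraries, so they were not lower in neurons. The 12 neuronal markers summed to 162 and 350 CPM in the first group and to 202 and 365 CPM in the second, and the groups overlapped. The otic progenitor markers Pax2 and Pax8 had 0 counts in all 4 libraries. The otic list of 8 genes summed to 105 and 142 CPM in the proliferating and 97.5 and 48.0 CPM in the neuron libraries. Markers of other cell types summed to 0.336 to 10.5 CPM for hair cells and 8.46 to 17.9 CPM for mesenchyme. Sums were 0.102 to 1.22 CPM for endothelium and 0.714 to 1.43 CPM for macrophages. The hair cell gene Atoh1 had 17 and 18 counts in proliferating replicates 1 and 2. In neuron replicates 1 and 2 it had 1 and 91 counts, the latter being 9.28 CPM, above each ID gene in that library. The mesenchymal gene Pdgfra had 119 and 66 counts in the proliferating and 200 and 70 in the neuron libraries. Of the genes in these lists Pou4f3, Otof, Col1a2, Dcn, Pdgfrb, Tie1, Emcn, Ptprc and Cx3cr1 were at 0 throughout. The rest had a count in at least 1 library, and the hair cell gene Myo7a had 18 in proliferating replicate 1.

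The promoters of Id2, Id3 and Id4 are shown because these ID genes differed most in how their levels were spread over the libraries. RefSeq promoter entries (GRCm38.p6, the assembly of the mm10 build in the submitters' processing notes) were found for 6 of the 10 genes, and Id1, Bmp7, Smad7 and Bambi had no entry. Each sequence below is the 250 bases before the annotated start, read 5′ to 3′ on the gene's strand. Capitals mark GGCGCC, a GC-rich motif that BMP-activated SMAD complexes can bind, and GTCT or its reverse complement AGAC, the core of the SMAD4 motif. Both strands were searched, and the motifs cannot overlap each other.
Id2: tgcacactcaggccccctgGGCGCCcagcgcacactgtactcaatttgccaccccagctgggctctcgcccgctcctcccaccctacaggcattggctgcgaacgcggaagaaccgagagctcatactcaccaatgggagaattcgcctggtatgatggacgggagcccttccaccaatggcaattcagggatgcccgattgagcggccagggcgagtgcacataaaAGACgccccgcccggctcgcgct
Id3: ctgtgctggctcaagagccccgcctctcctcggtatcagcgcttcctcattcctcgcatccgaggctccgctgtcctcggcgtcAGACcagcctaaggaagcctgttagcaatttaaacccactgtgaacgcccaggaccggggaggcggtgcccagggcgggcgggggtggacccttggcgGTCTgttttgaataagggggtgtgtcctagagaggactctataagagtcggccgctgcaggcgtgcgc
Id4: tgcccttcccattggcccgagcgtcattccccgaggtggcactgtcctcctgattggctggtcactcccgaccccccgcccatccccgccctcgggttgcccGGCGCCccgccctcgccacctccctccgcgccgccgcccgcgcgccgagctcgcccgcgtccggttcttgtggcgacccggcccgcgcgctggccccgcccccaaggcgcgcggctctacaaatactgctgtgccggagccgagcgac
The windows are chr12:25096093-25096342 on the minus strand for Id2, chr4:136143572-136143821 on the plus strand for Id3 and chr13:48260866-48261115 on the plus strand for Id4. GGCGCC was present once in the windows of Id2 (starting 231 bases before the start) and Id4 (148 bases before it) and was not in that of Id3. It was also present once in the window of Bmpr1a, and 9.59% of all 32851 promoter windows of this length held it. The Bmpr1a window (chr14:34502547-34502796, minus strand) lies inside the annotated span of the gene, so it precedes a start within the gene. GTCT or AGAC was found in the windows of Id2 (1 match), Id3 (2 matches), Bmp4 (1) and Smad6 (1), and 82.9% of all windows held it. These matches are descriptions of the letters and say nothing of binding in these cells.

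The question put to each gene was whether its level differed between proliferating cells and neurons by more than the replicates of a group differed. The edgeR quasi-likelihood test called 0 of the 7 tested members at an adjusted p-value under 0.05, beside 0% higher and 0% lower of all tested genes. DESeq2 and limma also called 0 of the 7 by adjusted p-value. Over all 12783 genes DESeq2 called 12 higher and 48 lower, and limma 0 higher and at most 2 lower. At an unadjusted p-value under 0.05 edgeR and limma gave 0 of the 7 and DESeq2 gave 1, Id3 (0.0382). Over all genes edgeR gave 117 higher and 321 lower at that threshold. DESeq2 gave 125 and 352, and limma at most 30 and 214. All 4 ID genes had a negative log2 fold change, whereas the receptor gene Bmpr1a and the ligand gene Bmp7 lay close to 0. Across the 7 tested members 6 fold changes were negative, beside 48.0% of all tested genes, and their median was -0.92 beside 0.02 for all tested genes. Within the pairs that median was -0.72 (replicate 1) and -0.32 (replicate 2). It became -0.27 when proliferating replicate 2 was left out and -0.34 when neuron replicate 1 was left out, and it describes genes whose counts were between 9 and 371. With 2 libraries a group an exact permutation of a single value cannot give a two-sided p-value under 0.333, so none was made. In bulk RNA, fewer cells of a type and less RNA per cell cannot be told apart.

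**Figure D1:**
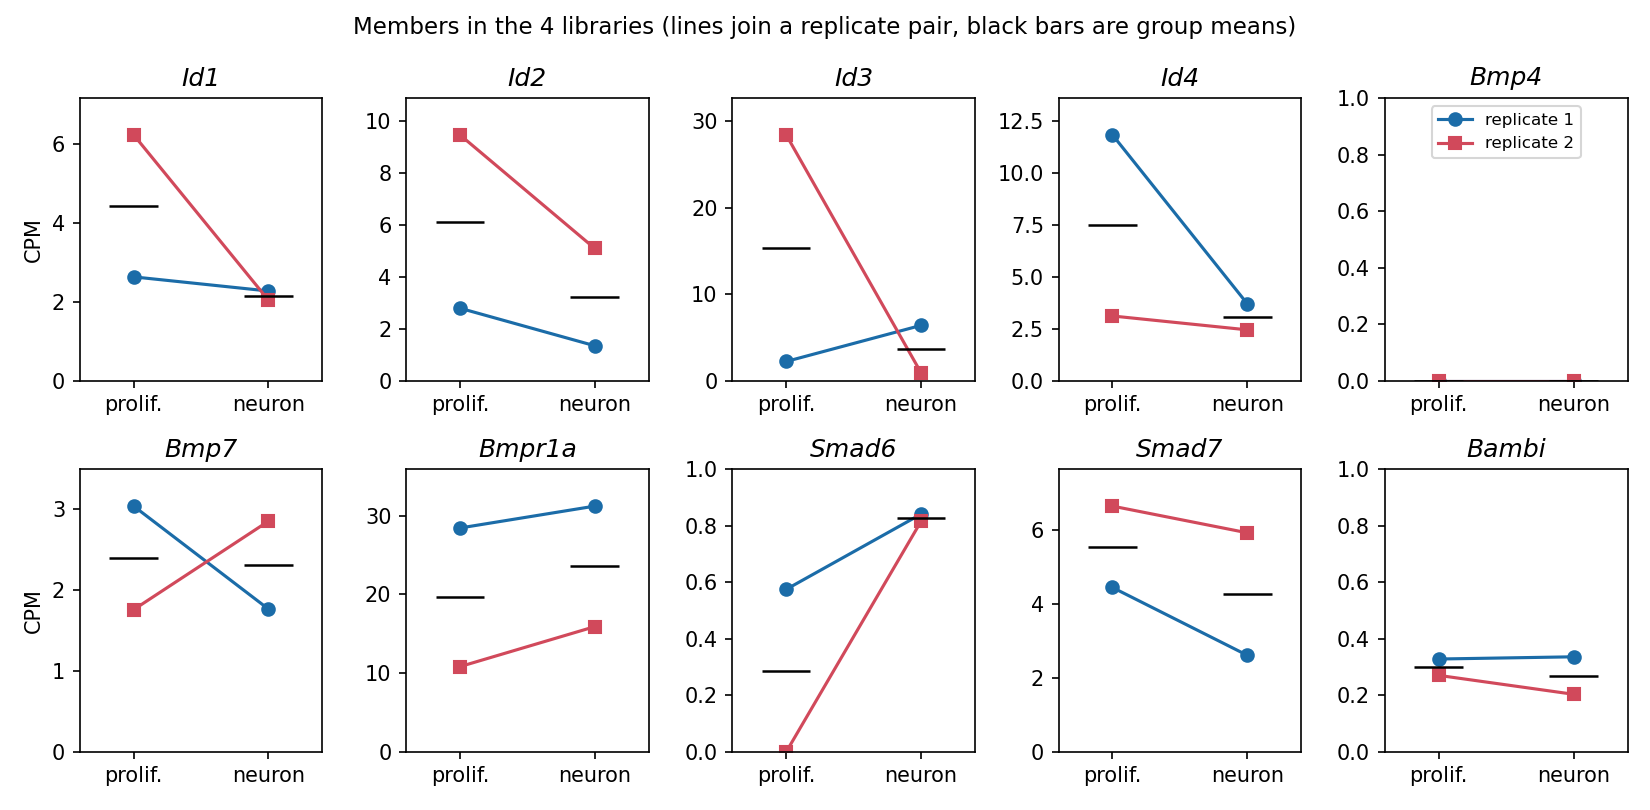
Level of each of the 10 genes (vertical axis, CPM on TMM-adjusted library sizes, starting at 0 with its own scale per gene) in the proliferating and neuron libraries; circles and squares are replicates 1 and 2, lines join a replicate pair and black bars are group means (n = 2). Id1, Id2 and Id4 slope down in both pairs, Id3 slopes up in replicate 1 and down in replicate 2, and Bmp4 is at 0 throughout.

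Id1 (gene ID 15901, chromosome 2, 152736251 to 152737410, GRCm38.p6) encodes an ID protein that is among the most direct readouts of BMP signalling in many cells. The proliferating replicates 1 and 2 had 32 and 46 counts, the neuron replicates 27 and 20, which is 2.63 and 6.23 CPM against 2.27 and 2.04 CPM. The groups did not overlap, although proliferating replicate 1 lay only just above the neuron libraries. Of the 7 tested members Id1 was the 1 whose neuron libraries both lay below both proliferating libraries, as in 14.5% of all tested genes. Group means were 4.43 ± 2.54 CPM for proliferating and 2.16 ± 0.164 CPM for neuron libraries (SD, n = 2 each). On the log2 scale the fitted difference was -1.02 (SE 0.63, edgeR adjusted p-value 0.9998). Without proliferating replicate 2 it was -0.28. The spread was on the proliferating side: replicate 2 was 2.37-fold above replicate 1 there (95% counting interval 1.48 to 3.84), while the neuron replicates differed by less than counting error (1.11-fold, 0.602 to 2.09). Within the replicate 1 pair the proliferating level was 1.16-fold that of neurons, within counting error (0.672 to 2.01), and within the replicate 2 pair 3.05-fold (1.77 to 5.45). Counting intervals cover counting error only.

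Id2 (gene ID 15902, chromosome 12, 25093799 to 25096092) encodes an ID protein that is widely expressed in neural progenitors. Counts of 34 and 70 in proliferating replicates 1 and 2 stood against 16 and 50 in neuron replicates 1 and 2, corresponding to 2.79 and 9.48 CPM against 1.35 and 5.10 CPM. Both libraries of replicate 2 were high and both of replicate 1 were low, so the groups overlapped although neurons were lower within each pair. Within the replicate 1 pair the proliferating level was 2.08-fold that of neurons (95% counting interval 1.11 to 4.03), and within the replicate 2 pair 1.86-fold (1.27 to 2.73). The replicate 2 library exceeded the replicate 1 library by 3.39-fold in proliferating cells and by 3.79-fold in neurons. The fitted log2 fold change was -0.92 (SE 0.82, edgeR adjusted p-value 0.9998). Leaving out proliferating replicate 2 gave 0.19, leaving out neuron replicate 1 gave -0.30, and leaving out neuron replicate 2 gave -2.17. With the replicate number as a block the SE was 0.52 and the adjusted p-value 0.876.

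Id3 (gene ID 15903, chromosome 4, 136143822 to 136145392) encodes an ID protein that, like ID1, is a common immediate target of BMP. Its counts were 27 and 210 in proliferating replicates 1 and 2 and 76 and 9 in neuron replicates 1 and 2, or 2.22 and 28.4 CPM against 6.39 and 0.917 CPM. Proliferating replicate 2 was far above the other 3 libraries, and the highest and the lowest Id3 level were both found in the replicate 2 pair. In that pair the proliferating level was 31.0-fold that of neurons (95% counting interval 16.01 to 68.7). In the replicate 1 pair the direction was the opposite, with neurons 2.88-fold above proliferating cells (1.84 to 4.65). Both differences exceeded counting error, and opposite directions in the pairs were found for 45.7% of all tested genes. The 12.8-fold difference between the proliferating replicates (8.56 to 19.9) set the spread, and the group means were 15.3 ± 18.5 CPM in the proliferating group against 3.66 ± 3.87 CPM (SD, n = 2 each). The log2 fold change of -2.04 (SE 1.21, edgeR adjusted p-value 0.9998) became 0.73 with proliferating replicate 2 left out and -4.08 with neuron replicate 1 left out.

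Id4 (gene ID 15904, chromosome 13, 48261116 to 48266028) encodes the ID protein that is best known from neural stem cells and the astrocyte lineage. Its counts were 144 and 23 in proliferating replicates 1 and 2 and 44 and 24 in neuron replicates 1 and 2, or 11.8 and 3.11 CPM against 3.70 and 2.45 CPM. Here proliferating replicate 1 was the high library and the other 3 lay close together, so that neuron replicate 1 exceeded proliferating replicate 2 and the groups overlapped. The proliferating level was 3.20-fold that of neurons in the replicate 1 pair (95% counting interval 2.27 to 4.59). In the replicate 2 pair the ratio was 1.27, within counting error (0.686 to 2.35). For Id4 edgeR gave a log2 fold change of -1.29 (SE 0.70, adjusted p-value 0.9998), which was -0.03 without proliferating replicate 1. Id4 overlaps an antisense gene, A330033J07Rik, and whether the counting used strand is not given in the sources used here. That gene had at most 3 counts in any library.

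**Figure D2:**
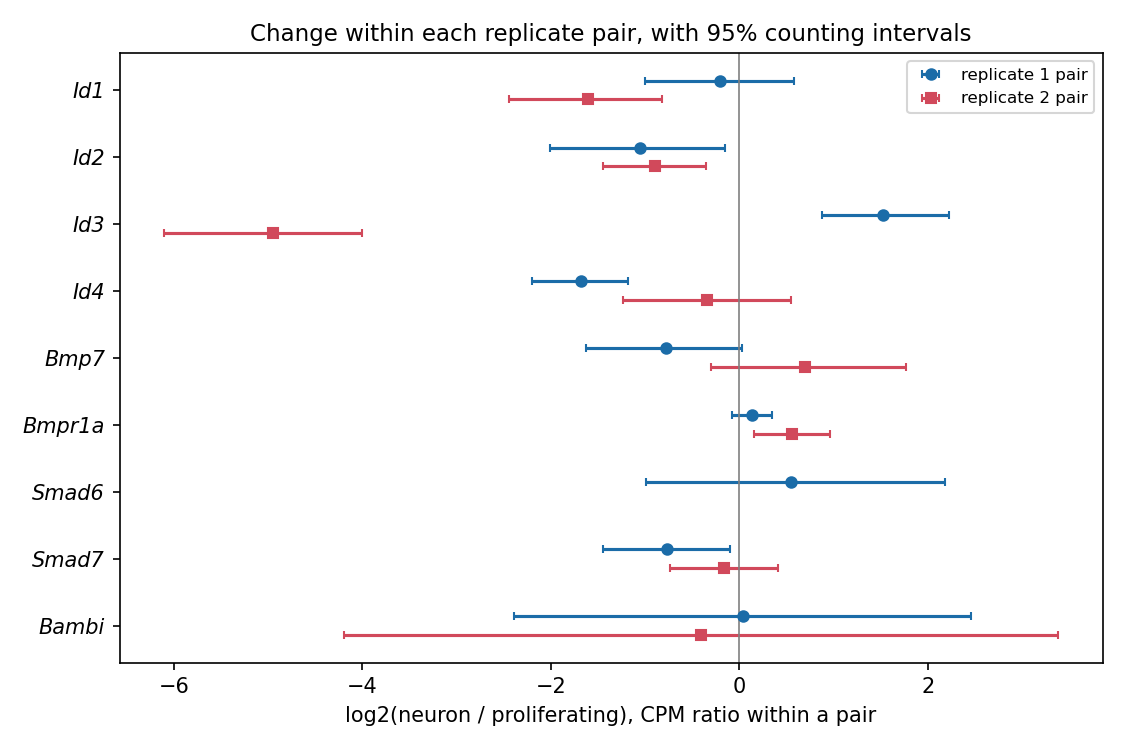
Ratio of the neuron to the proliferating level within each replicate pair (horizontal axis, log2 of the CPM ratio) for the members with counts in both libraries of a pair; points are the ratios and bars are 95% counting intervals. Id2 lies left of 0 in both pairs with intervals clear of 0, and the 2 intervals of Id3 lie on opposite sides of 0.

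ID genes were thus lower in neurons within both pairs for 3 of the 4 genes (Id1, Id2 and Id4), beside 25.5% of all tested genes, and went opposite ways for Id3. The Id1 difference in the replicate 1 pair and the Id4 difference in the replicate 2 pair were within counting error. These directions were the same on the scale of library size alone, which the deposited RPKM values (counts scaled by gene length and library size) follow. Summed per library, the 4 genes had 19.5 and 47.2 CPM in proliferating replicates 1 and 2, and 13.7 and 10.5 CPM in the neuron replicates. The lower of the proliferating sums was above the higher of the neuron sums, and the group means were 33.4 ± 19.6 and 12.1 ± 2.27 CPM (SD, n = 2 each). Per kilobase of merged exons (GENCODE M21) the sums were 8.22 and 32.3 for the proliferating against 8.47 and 5.20 CPM for the neuron libraries, and on this scale the groups overlapped. In the deposited RPKM values the sums were 13.7 and 28.6 against 11.9 and 4.24, without overlap. Whether the groups overlapped therefore depended on the scale.

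The ID family was made up differently in each library. Per kilobase of exon, Id4 held the largest share in proliferating replicate 1, with 37.4% of the summed ID level. Id3 held 68.9% in proliferating replicate 2 and 59.0% in neuron replicate 1, and Id2 held 40.2% in neuron replicate 2. Id1 came next with 27.6% in proliferating replicate 1 (32 counts) and 33.8% in neuron replicate 2 (20 counts). No counting interval was made for these shares per length, so the lead in those libraries is uncertain. The same gene led each library when shares were taken from the deposited RPKM values, with 35.6%, 74.4%, 71.0% and 64.0% in the same order. In raw ID counts, Id4 made up 60.8% of 237 counts in proliferating replicate 1 (95% Clopper-Pearson interval 54.2% to 67.0%) and 6.59% of 349 counts in proliferating replicate 2 (4.22% to 9.72%). The leading ID gene therefore differed between the replicates of each group.

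**Figure D3:**
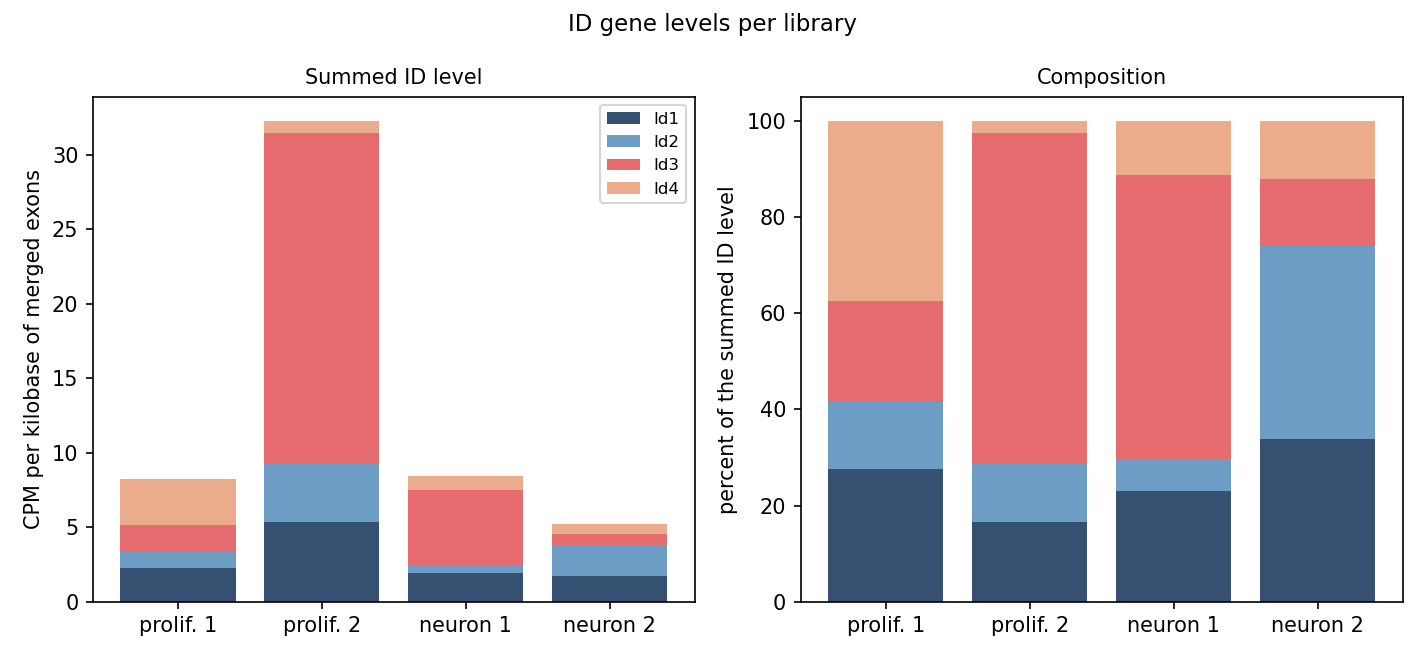
Left, summed level of the 4 ID genes per library (CPM per kilobase of merged exons), stacked by gene; right, the same as percent of each library's sum. The sum is 32.3 in proliferating replicate 2 and between 5.20 and 8.47 in the other 3 libraries, and a large Id3 segment marks proliferating replicate 2 and neuron replicate 1.

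Glial markers were also lower in neurons, and their part in the ID levels was not tested. Of the 10 listed glial markers 4 were tested, and all 4 were lower within both pairs. Their summed level was 137 and 122 CPM in proliferating replicates 1 and 2, against 70.9 and 25.1 CPM in the neuron replicates. Slc1a3, a glutamate transporter of radial glia and astrocytes, had 92.4 and 48.3 CPM in the proliferating libraries against 47.4 and 16.1 CPM. It made up most of the sum in every library but proliferating replicate 2, where Fabp7 had 49.0 CPM. Gfap, an astrocyte filament gene, had 181 and 89 counts in the proliferating libraries and 1 and 2 in the neuron libraries, a log2 fold change of -6.47 (SE 0.70, edgeR adjusted p-value 0.110). With the replicate block that adjusted p-value was 0.0158. Fabp7, a radial glia gene, had 272 and 362 counts in the proliferating libraries and 211 and 9 in the neuron libraries, with its lowest level in neuron replicate 2 as for Id3. All of the 10 glial markers had a count in at least 1 library. Sox10 and Mbp, markers of Schwann cells and oligodendrocytes, had at most 2 counts in any library.

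Of the ligand genes, Bmp4, the BMP of the otic sensory patches, had 0 counts in all 4 libraries, which allows at most 0.247 to 0.406 CPM per library. Bmp7 (gene ID 12162, chromosome 2, 172868012 to 172940321), a ligand with broad roles in epithelial and neural development, was the only one of 15 listed BMP-type ligand genes to pass the filter. Its counts were 37 and 13 in proliferating replicates 1 and 2 and 21 and 28 in neuron replicates 1 and 2, or 3.04 and 1.76 CPM against 1.77 and 2.85 CPM. Levels overlapped almost completely, with opposite directions in the 2 pairs, each within counting error (neuron over proliferating 0.581, 0.323 to 1.02, and 1.62, 0.813 to 3.41). Its fitted log2 fold change was -0.07 (SE 0.64). Of the ligand genes 8 had 0 counts in every library, and the next most abundant after Bmp7 were Bmp8b, with 0 to 9 counts, and Gdf7, with 3 to 6 counts.

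Bmpr1a (gene ID 12166, chromosome 14, 34411061 to 34503336), the type I receptor that BMP2 and BMP4 use, had the most counts of the 10 genes. Its counts were 346 and 80 in proliferating replicates 1 and 2 and 371 and 156 in neuron replicates 1 and 2, or 28.4 and 10.8 CPM against 31.2 and 15.9 CPM. Both replicate 1 libraries were high and both replicate 2 libraries low, the reverse of Id2, and the groups overlapped. Neurons were higher within both pairs in CPM, as in 28.8% of all tested genes, but in the deposited RPKM values the replicate 1 pair went the other way (1.63 in proliferating cells and 1.38 in neurons). A log2 fold change of 0.26 (SE 0.61, edgeR adjusted p-value 0.9998) was fitted. It was -0.12 with library size alone as the scaling, a scaling that moved the median over all genes by -0.30. Leaving out proliferating replicate 2 gave -0.27 and leaving out proliferating replicate 1 gave 1.11.

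Among the feedback inhibitors Smad7, whose product blocks type I receptors of both the BMP and the TGF-beta branch, was the 1 that passed the filter. It lies on chromosome 18 (gene ID 17131). Its counts were 54 and 49 in proliferating replicates 1 and 2 and 31 and 58 in neuron replicates 1 and 2, or 4.44 and 6.63 CPM against 2.61 and 5.91 CPM. The replicate 2 libraries were the higher ones in both groups, as for Id2, and the groups overlapped. Within the replicate 1 pair the proliferating level was 1.70-fold that of neurons (95% counting interval 1.07 to 2.74) and within the replicate 2 pair 1.12-fold (0.751 to 1.67). The log2 fold change of -0.38 (SE 0.59, edgeR adjusted p-value 0.9998) became 0.06 when neuron replicate 1 was left out and -1.08 when neuron replicate 2 was.

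Smad6 (gene ID 17130, chromosome 9, 63953076 to 64022085), the inhibitory SMAD that acts chiefly on the BMP branch, was counted 7 and 0 times in proliferating replicates 1 and 2 and 10 and 8 times in neuron replicates 1 and 2. The neuron levels of 0.841 and 0.816 CPM lay above the 0.575 CPM of proliferating replicate 1, with a ratio of 1.46 in that pair and a 95% counting interval of 0.503 to 4.53. With 3 counts put in place of the 0 of proliferating replicate 2, the neuron level in the replicate 2 pair was 2.01-fold higher. That ratio leaves out the counting error of the 8 neuron counts and is not a lower limit. The 95% counting intervals overlapped, at 0.352 to 1.61 CPM in neuron replicate 2 and 0 to 0.499 CPM in proliferating replicate 2. Without a gene filter its unadjusted p-value in the edgeR fit was 0.246. Bambi (gene ID 68010, chromosome 18), a pseudoreceptor that lacks the kinase domain, had 4 counts in each replicate 1 library and 2 in each replicate 2 library, too few for a comparison.

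The order of levels among the 10 genes can be read only per length, and most neighbours in it were not separated. Per kilobase of merged exons the group means in proliferating cells ran from Id3 (11.99 CPM) through Id1 (3.82), Bmpr1a (3.25), Id2 (2.52), Id4 (1.94) and Smad7 (1.26) to Bmp7 (0.654), Smad6 (0.0968) and Bambi (0.0591). The ranges of neighbours overlapped from Id3 down to Smad7 and again between Smad6 and Bambi. In neurons Bmpr1a led with 3.90 CPM per kilobase, followed by Id3 (2.86), Id1 (1.86), Id2 (1.32), Smad7 (0.973), Id4 (0.799), Bmp7 (0.630), Smad6 (0.279) and Bambi (0.0532). There the ranges of neighbours overlapped from Bmpr1a down to Bmp7. The positions of Bmpr1a, Id1, Id2, Id4, Smad7 and Bmp7 depend on the lengths used. For Bmpr1a the deposited RPKM values imply a length of 28435 bases, against 6046 bases of merged exons. Its mean RPKM of 0.953 in proliferating cells was below those of all 4 ID genes. The implied lengths are 3033 bases for Id1 and 1272 for Id2, against 1160 and 2438 bases of merged exons. Mean RPKM placed Id2 above Id1, at 4.45 against 1.44 in proliferating cells and 2.02 against 0.697 in neurons. Id4 was above Id1 on that scale too, at 2.72 in proliferating cells and 0.795 in neurons. Bmp7 was above Smad7, at 0.848 against 0.776 in proliferating cells and 0.565 against 0.472 in neurons.

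The wider pathway was examined in lists of ligands, receptors, effector SMADs, inhibitors, antagonists and targets. With the ID genes they held 63 genes, of which 28 were tested, 14 had 0 counts in every library and 0 were called by edgeR, DESeq2 or limma. At an unadjusted p-value under 0.05 edgeR gave 1 gene higher in neurons (Fstl1), beside 0.915% of all tested genes, and 1 lower (Junb), beside 2.51%. Fold changes were negative for 15 and positive for 13 of the 28, beside 48.0% negative among all tested genes. With library size alone as the scaling 21 were negative and 7 positive, and that scaling moved the median over all genes by -0.30. With TMM the median log2 fold change was -0.09, beside 0.02 for all tested genes. Within the pairs 10 of the 28 were lower in both, 8 were higher in both and 10 went opposite ways. Among all tested genes these shares were 25.5%, 28.8% and 45.7%.

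**Figure D4:**
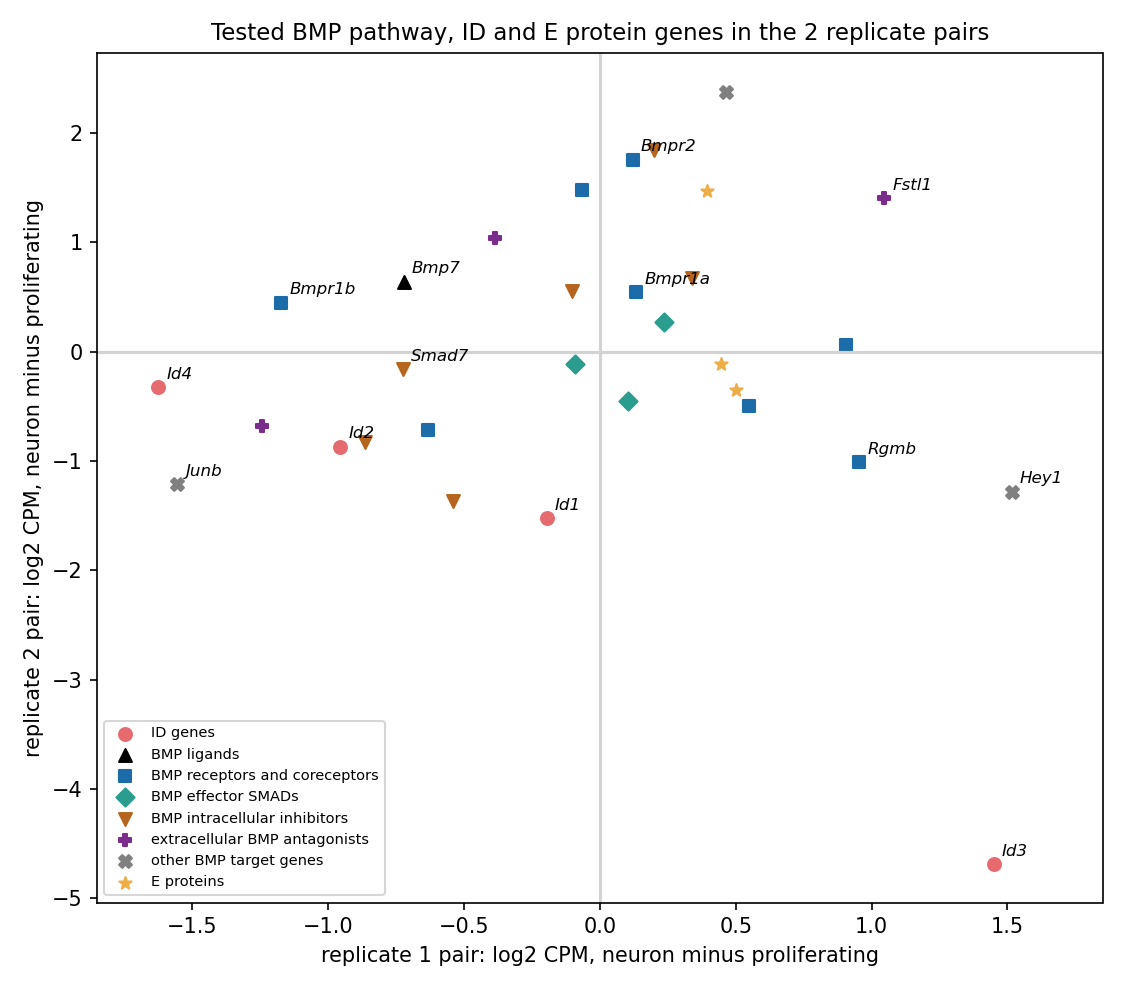
Difference of log2 CPM between neurons and proliferating cells in the replicate 1 pair (horizontal axis) and the replicate 2 pair (vertical axis) for the tested BMP pathway, ID and E protein genes, coloured by role. Id3 stands alone at 1.45 and -4.69, Junb and Id2 lie in the quadrant lower in both pairs, and Fstl1 lies in the quadrant higher in both.

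Junb, an AP-1 gene that answers BMP and also FGF signalling, was counted 125 and 77 times in proliferating replicates 1 and 2 and 40 and 43 times in neuron replicates 1 and 2. These are 10.3 and 10.4 CPM against 3.36 and 4.38 CPM, so the replicates were close and the groups did not overlap. Its fitted log2 fold change was -1.42 (SE 0.48), with an unadjusted p-value of 0.0202 and an edgeR adjusted p-value of 0.9998, and it lay between -1.62 and -1.28 with any 1 library left out. Fstl1, a secreted follistatin-like glycoprotein that binds BMPs, had 277 and 103 counts in the proliferating libraries and 561 and 365 in the neuron libraries, or 22.8 and 13.9 CPM against 47.2 and 37.2 CPM. Its log2 fold change was 1.198 with SE 0.48 (unadjusted p-value 0.0400, edgeR adjusted p-value 0.9998). Neurons were 2.07-fold higher in the replicate 1 pair (95% counting interval 1.79 to 2.40) and 2.67-fold higher in the replicate 2 pair (2.14 to 3.35).

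Receptor genes were mostly detected, with 8 of 10 tested and log2 fold changes between -0.72 (Bmpr1b) and 0.65 (Bmpr2). Bmpr2, the type II BMP receptor, had 951 and 151 counts in proliferating cells and 1010 and 682 counts in neurons, and its fold change was -0.02 without proliferating replicate 2. Bmpr1b, the other type I BMP receptor of neural tissue, had 264 and 36 counts in proliferating cells and 113 and 66 counts in neurons, with opposite directions in the pairs. Smad1 had 15.5 and 18.7 CPM in proliferating cells against 14.6 and 17.2 CPM in neurons, a log2 fold change of -0.11 with SE 0.45. Smad5 had one of -0.13 (SE 0.48). Smad4 had 37.3 and 40.9 CPM against 44.0 and 49.4 CPM, a log2 fold change of 0.26 (SE 0.43) that was -0.02 with library size alone. Smad9 did not pass the filter, with 19 and 1 counts in proliferating cells and 3 and 10 counts in neurons.

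Of the 6 tested intracellular inhibitor genes, Smad7 included, 3 had negative and 3 had positive fold changes, and 0 passed the test. Ski, a corepressor that binds SMAD4, lay at 39.2 and 45.2 CPM in the proliferating libraries against 21.4 and 25.4 CPM, without overlap (log2 fold change -0.85, SE 0.44, unadjusted p-value 0.0929, edgeR adjusted p-value 0.9998). Its relative Skil lay on the other side, at 14.5 and 4.47 CPM against 16.7 and 16.5 CPM (log2 fold change 0.80, SE 0.63), which was 0.19 without proliferating replicate 2. The secreted antagonist genes Nog, Chrdl1, Grem1 and Sostdc1 had 0 counts in all 4 libraries. Of the other BMP targets Hey1, which is also a Notch target, had 59 and 110 counts in proliferating cells and 169 and 59 counts in neurons. It was higher in neurons in the replicate 1 pair (2.93-fold, 2.17 to 4.01) and lower in the replicate 2 pair (proliferating 2.48-fold above neurons, 1.79 to 3.46), the same order of directions as Id3.

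E protein genes encode the partners that ID proteins hold, and their level relative to the ID genes was higher in both neuron libraries than in both proliferating libraries. The ratio of these sums was not tested. On the scale of CPM per kilobase of merged exons, the sum of Tcf3, Tcf4 and Tcf12 was 4.75 and 1.07 times the sum of the ID genes in proliferating replicates 1 and 2, and 6.24 and 7.42 times that sum in the neuron replicates. On that scale the groups overlapped for each sum alone. In the same order of libraries the E protein sums were 39.1 and 34.7 against 52.9 and 38.6 CPM. The ID sums were 8.22 and 32.3 against 8.47 and 5.20 CPM. On the deposited RPKM scale, whose lengths are larger for these genes with many transcripts, the ratios were 0.228 and 0.0505 in proliferating cells and 0.276 and 0.318 in neurons, so the order of groups held while the size of the ratio did not. None of the 3 genes was called, and Tcf4 had the largest fold change of them at 0.70 (SE 0.65, edgeR adjusted p-value 0.9998), which was 0.05 without proliferating replicate 2. The 3 genes had unadjusted p-values of 0.316 or more.

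The genes whose profile over the 4 libraries lay nearest to each ID gene, by Euclidean distance of centred log2 CPM among genes averaging at least 50 counts, were Cdr2l, Tprgl and Clpp for Id1 (distances 0.0621 to 0.106). For Id2 they were Nav1, Vat1 and Dlg5 (0.198 to 0.204), and for Id4 n-TKttt22, Dtna and Gpm6b (0.222 to 0.328). For Id3 the nearest genes, Aldoc, Ehd2 and Cspg4, were far away (1.34 to 1.38), so that no gene of 7294 followed Id3 closely. Aldoc had 16.5 and 79.2 CPM in proliferating replicates 1 and 2, and 18.3 and 7.75 CPM in the neuron replicates. Like Id3 it was lower in neurons in the replicate 2 pair, but in the replicate 1 pair it was nearly level, at 201 and 217 counts. Ehd2 and Cspg4 were also lower in neurons in the replicate 2 pair. In the replicate 1 pair Ehd2 had 7.31 CPM in proliferating cells and 6.22 in neurons, and Cspg4 2.46 and 2.36. These small differences were opposite in direction to that of Id3. With 4 libraries such likeness is a description only.

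**Figure D5:**
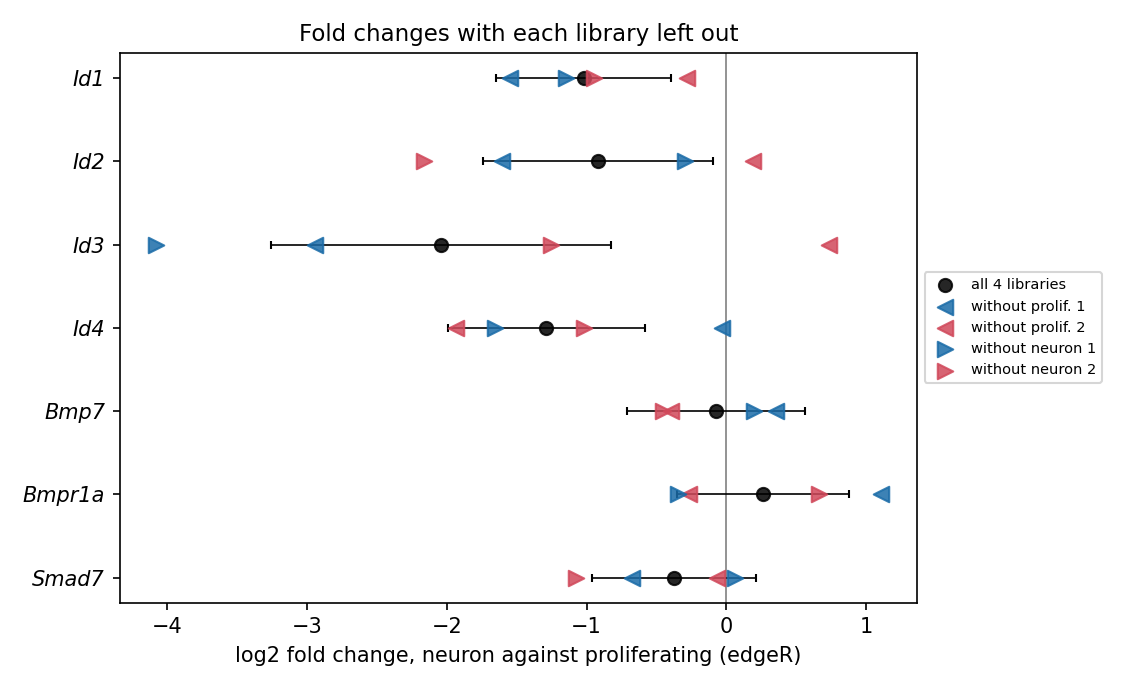
Log2 fold change of neurons against proliferating cells (horizontal axis, edgeR) for the 7 tested members with all 4 libraries (black, bars are SE) and with each library left out (coloured triangles). Id3 moves from -4.08 to 0.73, Id1 and Id4 stay at or below -0.03, and Bmpr1a and Bmp7 fall on both sides of 0.

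With each library left out in turn, Id1 (-1.55 to -0.28) and Id4 (-1.94 to -0.03) kept a negative fold change in all 4 fits, whereas Id2, Id3, Bmp7, Bmpr1a and Smad7 changed sign in at least 1. Leaving out proliferating replicate 2 turned Id2, Id3 and Bmpr1a, leaving out neuron replicate 1 turned Bmp7, Bmpr1a and Smad7, and leaving out proliferating replicate 1 turned Bmp7. Blocking on the replicate number, the log2 fold changes were -0.91 for Id1, -0.96 for Id2, -1.53 for Id3 and -1.06 for Id4, with adjusted p-values of 0.868 to 0.954 for these genes. That fit called 3 of all tested genes (0.0235%), all lower in neurons, and 0 of them were BMP pathway or ID genes. At an unadjusted p-value under 0.05 it gave 0 of the 7 members, beside 3.48% of all tested genes lower and 2.7% higher.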

How the data were processed

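Total RNA of 4 samples was depleted of ribosomal RNA and sequenced as stranded libraries, per the labels' protocols. The authors deposited raw counts per gene symbol and RPKM values. The submitters' processing notes name HISAT2, SAMtools, featureCounts, DESeq2, deepTools 3.4.3 and the build mm10, without roles; annotation, strand setting and treatment of multiple matches are not given in the sources used here. The deposited RPKM equal count over total and over 1 length per gene.

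Groups and replicate numbers came from the titles. The main test was edgeR 4.0.16 (R 4.3.3) on counts: TMM, filterByExpr (minimum count 10, total 15), glmQLFit and glmQLFTest with a group term and no covariate, fitted to the 4 libraries, two-sided, Benjamini-Hochberg over 12783 genes, called under 0.05. Nothing says that the replicates were separate cultures beyond the words biological replicate, so p-values measure the spread between these libraries. SE is the log2 fold change over the square root of F. Differences within pairs use log2 CPM (prior count 2), and ratios of CPM have Clopper-Pearson 95% intervals for counting error; reads that carry no molecular identifier may be copies of one molecule. Alternatives were RLE, library size alone, DESeq2 1.42.0, no filter, a mean count of at least 50, limma 3.58.1 on log2(RPKM + 1) or with 0.1 in place of 1, a replicate block, the 18S row left out, and each library left out. The titles of both replicate 2 libraries say set 2, so the numbers were taken as pairs. Across genes, libraries of the same number deviated from their group means together (correlation 0.33). In log2 CPM, however, neuron replicate 2 correlated at 0.852 with proliferating replicate 2, below 0.905 with proliferating replicate 1 and 0.896 with neuron replicate 1. The pairing therefore rests mainly on the titles.

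The members, the 17 gene lists (143 genes) and the tests were chosen with earlier results of these data known. Named genes are the members, genes of the lists, and the 3 nearest profiles of each ID gene. Tables and figures used Python 3.11.15, pandas 2.3.3, scipy 1.17.1 and matplotlib 3.10.9.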

Additional observations from a re-analysis of the deposited data

How the results depend on the processing

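No member and no other gene of the BMP, E protein or TGF-beta lists was called under any of the 13 alternatives. Id1 and Id4 kept a negative log2 fold change under every alternative in which they were tested. Id2 (0.19) and Id3 (0.73) reversed without proliferating replicate 2. With no gene filter edgeR gave Id3 an unadjusted p-value of 0.00157 and an adjusted one of 0.164. At an unadjusted p-value under 0.05 that fit gave 432 higher and 577 lower of 25859 genes. Bmp7 reversed without proliferating replicate 1 (0.36) and without neuron replicate 1 (0.20), and Smad7 without neuron replicate 1 (0.0585). Bmpr1a reversed with library size alone (-0.12), on log2(RPKM + 1) (-0.0154), without neuron replicate 1 (-0.34) and without proliferating replicate 2 (-0.27). With a library left out the ranges were -2.17 to 0.19 for Id2, -4.08 to 0.73 for Id3, -0.45 to 0.36 for Bmp7, -0.34 to 1.11 for Bmpr1a and -1.08 to 0.0585 for Smad7. The median of the members, -0.92, was -0.33 with no gene filter (9 genes), -1.29 for genes averaging at least 50 counts (3 genes), -0.54 on log2(RPKM + 1), which understates changes of low values, and -1.02 to -0.27 with a library left out. Of the 28 pathway genes 15 were negative and 13 positive. Library size alone, which moved the median over all genes by -0.30, gave 7 positive, and no gene filter gave 27 negative and 22 positive of 49. These alternatives for the lists were added after seeing the data.

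Over all genes 0 were called in each direction (edgeR, 117 higher and 321 lower at an unadjusted p-value under 0.05). DESeq2 called 12 higher and 48 lower, no gene filter 41 and 122, library size alone 2 lower, log2(RPKM + 1) 1 lower, log2(RPKM + 0.1) 2 lower, and the replicate block 3 lower, with 345 higher and 445 lower unadjusted. Leaving out a library gave 1 to 37 higher and 9 to 90 lower, the highest counts without proliferating replicate 1; the lone library is then assumed to vary like the other group. Among list genes the replicate block changed the call of Gfap, a glial marker (adjusted p-value 0.110 without and 0.0158 with the block), and of no member or other list gene. The cause of these differences was not tested. Counts of 9 to 371 for the tested members limit the precision of their ratios.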

Other observations

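The neighbouring TGF-beta and activin branch was also counted. Of its 12 listed genes 8 were tested and 0 were called by edgeR, DESeq2 or limma, with 0 at an unadjusted edgeR p-value under 0.05. Within the replicate pairs 3 of the 8 were lower in neurons in both, 2 were higher in both and 3 went opposite ways. Among all tested genes these shares were 25.5%, 28.8% and 45.7%. The median log2 fold change of the 8 genes was -0.46, beside 0.02 for all tested genes.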
